A study of Mus musculus with 8 samples.

Results

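The immature neuron cytoskeleton genes described here are 9 genes, Tubb2b, Tubb3, Tuba1a, Dcx, Stmn1, Stmn2, Gap43, Crmp1 and Dpysl3, taken by gene symbol alone. Every probe set whose only platform symbol was one of these names was used, which gave 16 probe sets of the 22690 on the array, for 9 of the 12393 genes it names. A further 2 probe sets list Tuba1a or Tubb2b beside another gene and were counted but not described. The study hybridised mouse eye total RNA, isolated with Trizol and cleaned up on RNeasy, to Affymetrix expression arrays, each group having an array I and an array II. The 4 groups are KPAW eyes at 1 month of age, wild type eyes at 1 month, KPAW eyes at 5 days and wild type eyes at 5 days. The labels do not expand KPAW. They name C57Bl6 as the strain of the 5-day wild type eyes and name none for the rest. The labels also do not say whether arrays I and II came from separate animals, so every p-value measures only the spread between these arrays. In RNA of a whole eye, fewer cells of a type and less RNA per cell cannot be told apart.

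A newly born neuron extends an axon by building microtubules from alpha- and beta-tubulin behind a motile growth cone. Proteins that bind, stabilise or disassemble those microtubules steer the process, and many of their genes are expressed strongly during outgrowth and weakly once axons are connected. In the mouse retina the last neurons are born in the first days after birth, and rods, bipolar cells and their synapses mature over the following weeks. Among the 9 genes, Tubb2b and Tubb3 encode beta-tubulins and Tuba1a an alpha-tubulin, and Dcx encodes doublecortin, which stabilises microtubules in migrating neurons. Stmn1 and Stmn2 encode stathmins, which bind tubulin and destabilise microtubules. Gap43 encodes a membrane protein of the growth cone, and Crmp1 and Dpysl3 encode collapsin response mediator proteins, which relay guidance cues to the cytoskeleton.

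Start-site sequences of some of these genes are shown as a description. Any relation between them and the size of the age difference was not tested. RefSeq start-site windows on GRCm38.p6, running from 250 bases before to 50 bases after an annotated start, were at hand for 4 of the 9 genes, Tubb3, Tuba1a, Dcx and Crmp1, in 6 windows. The windows below are for Dcx, whose signal was among the most reduced at 1 month, Tubb3, which was reduced less, and Tuba1a, whose age difference did not pass the test. They are given 5′ to 3′ on the gene's strand. The Dcx window is chrX:143933170-143933469 on the minus strand, the Tubb3 window chr8:123411303-123411602 on the plus strand, and the Tuba1a window chr15:98953452-98953751 on the minus strand. Capitals mark 3 kinds of motif, read on either strand. The first is the GC box, spelled GGGCGG. The second is the CCAAT box, spelled as it is named, and the third is the TATA box, spelled TATAAA.
Dcx: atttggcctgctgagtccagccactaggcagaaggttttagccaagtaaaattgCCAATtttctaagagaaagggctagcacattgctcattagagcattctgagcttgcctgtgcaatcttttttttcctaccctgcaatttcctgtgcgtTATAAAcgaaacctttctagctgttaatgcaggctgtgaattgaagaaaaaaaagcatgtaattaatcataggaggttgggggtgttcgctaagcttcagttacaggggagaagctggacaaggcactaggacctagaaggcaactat
Tubb3: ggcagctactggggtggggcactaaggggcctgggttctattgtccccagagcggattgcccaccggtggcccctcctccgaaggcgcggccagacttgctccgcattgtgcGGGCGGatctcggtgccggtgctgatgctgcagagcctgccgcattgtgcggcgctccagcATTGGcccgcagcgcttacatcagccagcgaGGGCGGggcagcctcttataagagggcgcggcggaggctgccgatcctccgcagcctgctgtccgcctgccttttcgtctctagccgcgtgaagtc
Tuba1a: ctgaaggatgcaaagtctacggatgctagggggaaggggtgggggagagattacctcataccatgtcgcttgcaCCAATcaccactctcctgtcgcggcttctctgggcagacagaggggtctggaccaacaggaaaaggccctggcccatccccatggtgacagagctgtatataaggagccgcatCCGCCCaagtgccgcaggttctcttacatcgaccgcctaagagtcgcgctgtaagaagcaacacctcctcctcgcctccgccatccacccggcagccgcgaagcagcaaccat
The Dcx window held 1 CCAAT box, 1 TATA box and no GC box, and its GC content was 43.0%. The Tubb3 window held 2 GC boxes and 1 CCAAT box at a GC content of 67.3%, and the Tuba1a window held 1 GC box and 1 CCAAT box at 59.0%. Crmp1 has 2 annotated starts, and its windows held 5 and 2 GC boxes, at GC contents of 77.0% and 61.0%, with neither of the other boxes. The second Dcx start lies 95 bases downstream, and most of its window is the same sequence. Of all 32851 start-site windows in the same RefSeq set, 35.7% hold a GC box, 37.4% a CCAAT box and 13.6% a TATA box. The median GC content was 52.7%. A match to these letters is a description of the window and does not show that a factor binds there.

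Values are given below as scaled signal, the deposited signal of a probe set after each array was brought to the same trimmed mean. A scaled signal is compared only within a probe set, since probe sets differ in how brightly they hybridise. Of the 16 probe sets, 14 passed the filter on low signal, and these cover all 9 genes. The 2 that did not pass are both for Dcx. Replicate arrays correlated at 0.927 in KPAW eyes at 1 month, 0.969 in wild type at 1 month, 0.946 in KPAW at 5 days and 0.964 in wild type at 5 days, over all probe sets that passed. KPAW array I at 1 month stood apart. Its summed signal of 12 rod genes was 2.59, against 40.8 on KPAW array II and 36.8 and 49.5 in wild type at 1 month. The female-specific transcript Xist read 0.0523 to 0.0861 on all 4 arrays at 1 month and 0.0821 on KPAW array I at 5 days, but 3.13 on KPAW array II and 2.95 and 3.64 in wild type at 5 days. In wild type eyes age and sex, as read from Xist, therefore cannot be told apart. In KPAW eyes sex is partly mixed with age, because the 2 arrays at 5 days differed in Xist. The comparison of KPAW with wild type at 5 days, and that of the age differences between them, carry the same limit. Summed lens genes, the check on the tissue label, read 38.0 to 58.9 across the 8 arrays. The ratio of 3′ to 5′ control signal was 0.808 to 0.826 at 1 month and 0.799 to 0.959 at 5 days for Gapdh, and 1.27 to 1.54 at 1 month and 1.37 to 1.86 at 5 days for beta-actin.

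The first comparison set eyes at 1 month against eyes at 5 days, within KPAW and within wild type. The genes were lower at 1 month. In KPAW eyes 11 of the 14 tested probe sets, from 8 of the 9 genes, fell at an adjusted p under 0.05, and none rose. Over all 15838 probe sets tested, 7.51% fell and 6.76% rose in that comparison. In wild type eyes 9 of the 14, from 7 of the 9 genes, fell and none rose, against 9.33% of all probe sets that fell and 8.73% that rose. The 2 tested Dcx probe sets and Stmn1 1448113_at passed the filter through their 5-day signals, so their being counted is not independent of age. With no filter, 11 of 16 probe sets fell in KPAW and 9 of 16 in wild type. The share of all probe sets was not compiled for that setting. The median log2 fold change over the 14 probe sets was -1.52 in KPAW and -1.29 in wild type. The median over all genes was -0.03 in KPAW and -0.01 in wild type. Both KPAW arrays at 1 month lay below both at 5 days for 14 of 14 probe sets, where 32.2% of all probe sets did so. In wild type this held for 12 of 14, where 33% of all did so, and the other 2 were Dpysl3 probe sets. Over all 16 probe sets, the 2 dim ones for Dcx included, 15 were lower and 1 overlapped in KPAW, and 12 were lower, 1 was higher and 3 overlapped in wild type.

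**Figure D1:**
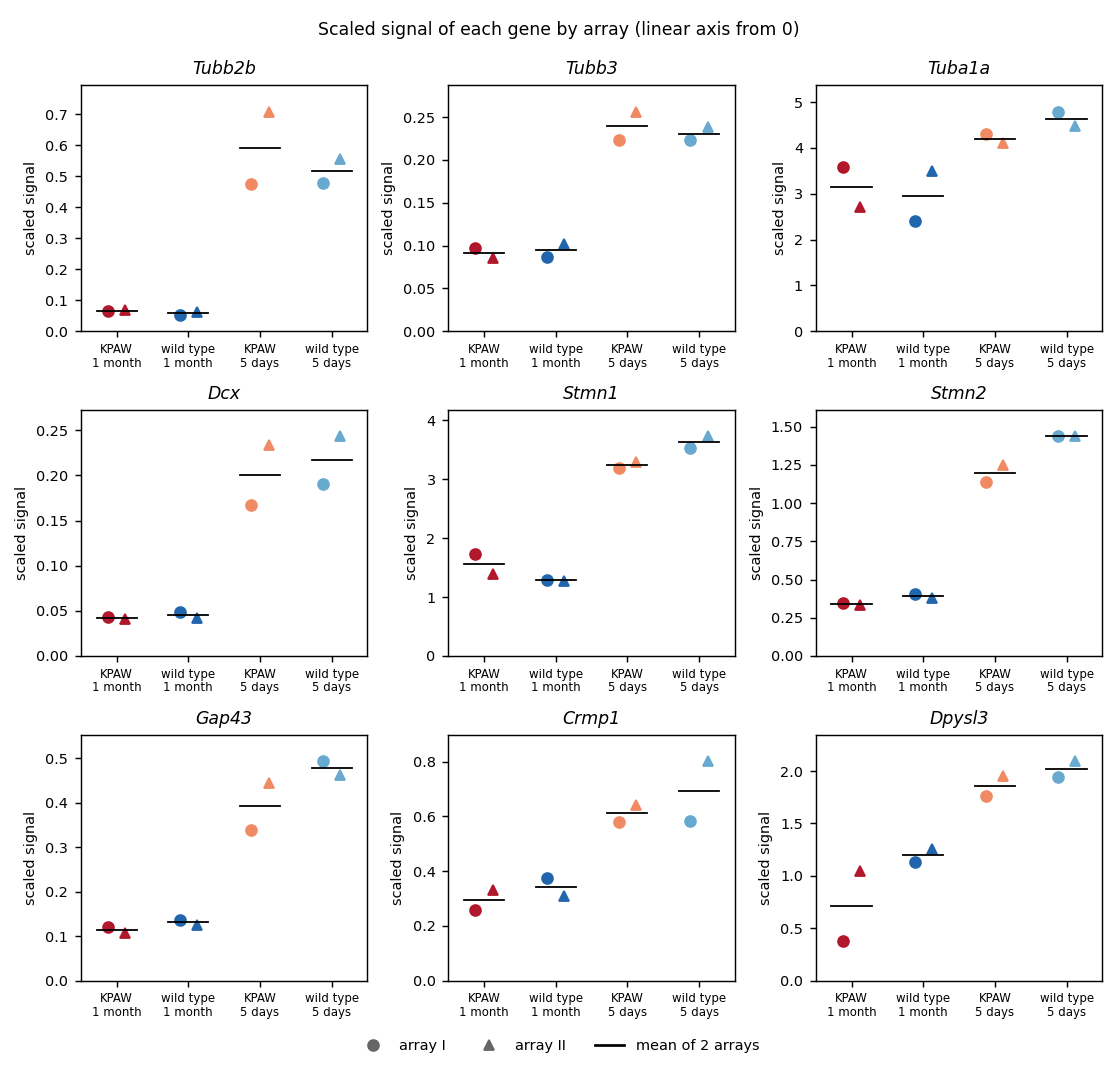
Scaled signal, on a linear axis from 0, for the brightest probe set of each of the 9 genes, with a circle for array I, a triangle for array II, a line at their mean, and groups in the order KPAW 1 month, wild type 1 month, KPAW 5 days, wild type 5 days. The points at 1 month lie below those at 5 days in every panel, and the gap is widest for Tubb2b (8.86-fold lower mean in KPAW) and narrowest for Tuba1a (1.34-fold).

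Among the tubulins the age difference ran from steep to shallow. Tubb2b had a scaled signal of 0.0665 and 0.0672 on KPAW arrays I and II at 1 month, against 0.476 and 0.709 at 5 days. In wild type Tubb2b read 0.0514 and 0.0634 at 1 month, against 0.477 and 0.557 at 5 days. All 4 arrays at 1 month thus lay far below all 4 at 5 days. The Tubb2b mean was 8.86-fold lower at 1 month in KPAW, and the log2 fold change was -2.78 (SE 0.20, limma adjusted p = 0.000441). In wild type the log2 fold change of Tubb2b was also -2.78 (SE 0.20, limma adjusted p = 0.000293).

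Tubb3, the beta-tubulin widely used to mark neurons, read 0.0976 and 0.0856 in KPAW at 1 month, against 0.224 and 0.256 at 5 days. In wild type Tubb3 read 0.0870 and 0.102 at 1 month, against 0.223 and 0.238 at 5 days. The groups of different age did not overlap, while KPAW and wild type did overlap at each age. Tubb3 was 2.62-fold lower at 1 month in KPAW (log2 fold change -1.21, SE 0.15, limma adjusted p = 0.0031) and 2.43-fold lower in wild type (log2 fold change -1.12, SE 0.15, limma adjusted p = 0.00314). With the values as deposited, without scaling, the wild type call for Tubb3 was lost (log2 fold change -0.68, adjusted p = 0.0899).

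Tuba1a, an alpha-tubulin of neurons, read 3.58 and 2.71 in KPAW at 1 month, against 4.30 and 4.10 at 5 days. In wild type Tuba1a read 2.40 and 3.49 at 1 month, against 4.79 and 4.49 at 5 days. Both 1-month groups lay below both 5-day groups, but their own arrays spread widely. The log2 fold change of Tuba1a was -0.43 in KPAW (SE 0.20, limma adjusted p = 0.198) and -0.67 in wild type (SE 0.20, limma adjusted p = 0.0553), and neither passed. The wild type difference in Tuba1a passed under 8 of the 21 other settings tried, and the KPAW difference under 1. The only Tuba1a probe set is of the x_at kind, whose probes can also bind related transcripts, so alpha-tubulin paralogs may share its signal.

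Dcx has 4 probe sets, of which 2 separated the ages clearly and 2 did not. Probe set 1418139_at read 0.0432 and 0.0405 in KPAW at 1 month, against 0.167 and 0.233 at 5 days. In wild type it read 0.0483 and 0.0418 at 1 month, against 0.190 and 0.243 at 5 days. The 1-month and 5-day arrays were well apart, and the 2 kinds of eye overlapped at each age. The log2 fold change of this Dcx probe set was -1.80 in KPAW (SE 0.20, limma adjusted p = 0.00193) and -1.84 in wild type (SE 0.20, limma adjusted p = 0.00131). Probe set 1418141_at behaved alike, with 0.0189 and 0.0184 in KPAW at 1 month against 0.131 and 0.190 at 5 days. In wild type it read 0.0205 and 0.00955 at 1 month, the second being the lowest value the table lists, against 0.157 and 0.175 at 5 days. Its log2 fold change was -2.17 in KPAW (SE 0.23, limma adjusted p = 0.00158) and -2.39 in wild type (SE 0.23, limma adjusted p = 0.000856), with 1-month signals at or under the pseudocount. Both of these Dcx probe sets passed the filter through their 5-day signals.

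The other two Dcx probe sets were dim at both ages and were not tested. Probe set 1418140_at averaged 0.0314 ± 0.0167 in KPAW and 0.0411 ± 0.00361 in wild type at 1 month, against 0.0389 ± 0.0121 in KPAW and 0.0360 ± 0.000914 in wild type at 5 days (SD, n = 2). Probe set 1448974_at averaged 0.0299 ± 0.00295 in KPAW and 0.0331 ± 0.00695 in wild type at 1 month, against 0.0433 ± 0.00835 in KPAW and 0.0292 ± 0.00358 in wild type at 5 days (SD, n = 2). On Dcx 1418140_at both wild type arrays at 1 month (0.0385 and 0.0436) lay a little above both at 5 days (0.0367 and 0.0354), the opposite of the brighter probe sets, and the KPAW ages overlapped. On Dcx 1448974_at the wild type ages overlapped and both KPAW arrays at 1 month (0.0278 and 0.0320) lay below both at 5 days (0.0374 and 0.0492).

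The stathmins were lower at 1 month as well. Stmn2, a stathmin of growing neurites, read 0.346 and 0.334 on probe set 1423280_at in KPAW at 1 month, against 1.14 and 1.25 at 5 days. In wild type Stmn2 read 0.405 and 0.380 at 1 month, against 1.44 and 1.44 at 5 days. The arrays of a group lay close together, and the ages were far apart in both kinds of eye. The Stmn2 mean was 3.51-fold lower at 1 month in KPAW (log2 fold change -1.75, SE 0.12, limma adjusted p = 0.000346) and 3.66-fold lower in wild type (log2 fold change -1.82, SE 0.12, limma adjusted p = 0.000245). The other Stmn2 probe set, 1423281_at, fell by a similar amount, with log2 fold changes of -1.53 in KPAW (limma adjusted p = 0.00179) and -1.47 in wild type (limma adjusted p = 0.00152).

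Stmn1, which is also expressed by dividing cells, read 1.72 and 1.39 on probe set 1415849_s_at in KPAW at 1 month, against 3.19 and 3.29 at 5 days. In wild type Stmn1 read 1.29 and 1.27 at 1 month, against 3.54 and 3.73 at 5 days. The ages did not overlap. The log2 fold change of Stmn1 was -1.05 in KPAW (SE 0.14, limma adjusted p = 0.0034) and -1.48 in wild type (SE 0.14, limma adjusted p = 0.000715). The dimmer Stmn1 probe set, 1448113_at, fell in KPAW (log2 fold change -1.08, limma adjusted p = 0.0233) and did not pass in wild type (log2 fold change -0.71, limma adjusted p = 0.0736). At 1 month it read 0.0409 and 0.0342 in KPAW and 0.0498 and 0.0442 in wild type, as dim as Dcx 1418139_at. It too passed the filter through its 5-day signals. The summed signal of 15 cell cycle genes moved with age too, at 2.89 and 2.34 in KPAW and 2.26 and 2.31 in wild type at 1 month, against 5.26 and 5.42 in KPAW and 5.65 and 5.36 in wild type at 5 days. The part of dividing cells in the Stmn1 difference was not tested.

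Gap43, the growth cone protein, read 0.120 and 0.107 in KPAW at 1 month, against 0.340 and 0.446 at 5 days. In wild type Gap43 read 0.136 and 0.126 at 1 month, against 0.494 and 0.462 at 5 days. Every array at 1 month was below every array at 5 days. Gap43 was 3.46-fold lower at 1 month in KPAW (log2 fold change -1.61, SE 0.16, limma adjusted p = 0.00137) and 3.65-fold lower in wild type (log2 fold change -1.72, SE 0.16, limma adjusted p = 0.000794).

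Crmp1 read 0.257 and 0.330 in KPAW at 1 month, against 0.581 and 0.641 at 5 days. In wild type Crmp1 read 0.373 and 0.308 at 1 month, against 0.585 and 0.803 at 5 days. The ages were separate but closer than for Gap43, and Crmp1 was 2.08-fold lower at 1 month in KPAW (log2 fold change -1.01, SE 0.20, limma adjusted p = 0.0149) and 2.04-fold lower in wild type (log2 fold change -0.97, SE 0.20, limma adjusted p = 0.0144). The wild type Crmp1 call was lost with the values as deposited (log2 fold change -0.48, adjusted p = 0.27), without wild type array II at 1 month (adjusted p = 0.0896) and without wild type array II at 5 days (adjusted p = 0.0966). The KPAW Crmp1 call was lost without KPAW array II at 5 days (adjusted p = 0.0893) and with the 2 KPAW groups fitted alone (adjusted p just above 0.05).

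Dpysl3 followed age less evenly. Its brightest probe set, 1454613_at, read 0.382 and 1.05 in KPAW at 1 month, against 1.76 and 1.96 at 5 days. In wild type Dpysl3 read 1.13 and 1.26 at 1 month, against 1.94 and 2.10 at 5 days. KPAW array I at 1 month was the lowest array by a wide margin, and the remaining arrays still fell into 2 ages that did not overlap. Dpysl3 fell in KPAW (log2 fold change -1.52, SE 0.37, limma adjusted p = 0.0337) and did not pass in wild type (log2 fold change -0.75, SE 0.37, limma adjusted p = 0.206). Without KPAW array I at 1 month the KPAW log2 fold change of Dpysl3 was -0.81 (adjusted p = 0.0173), and without KPAW array II at 1 month it was -2.22 (adjusted p = 0.000508). The KPAW call of Dpysl3 was lost without KPAW array I or II at 5 days (adjusted p = 0.0822 and 0.153), without any single wild type array (adjusted p = 0.0589 to 0.0631), and with the 2 KPAW groups fitted alone (adjusted p = 0.118). The wild type difference of Dpysl3 passed when KPAW array I or II at 1 month was left out of the shared fit (adjusted p = 0.00623 and 0.00634) and when the 2 wild type groups were fitted alone (adjusted p = 0.00788). The other two Dpysl3 probe sets did not pass in either kind of eye at the settings used here, with log2 fold changes of -1.66 and -1.35 in KPAW and -0.56 and -0.52 in wild type. Each passed in KPAW under 3 of the 21 other settings, one of which leaves out KPAW array II at 1 month.

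**Figure D2:**
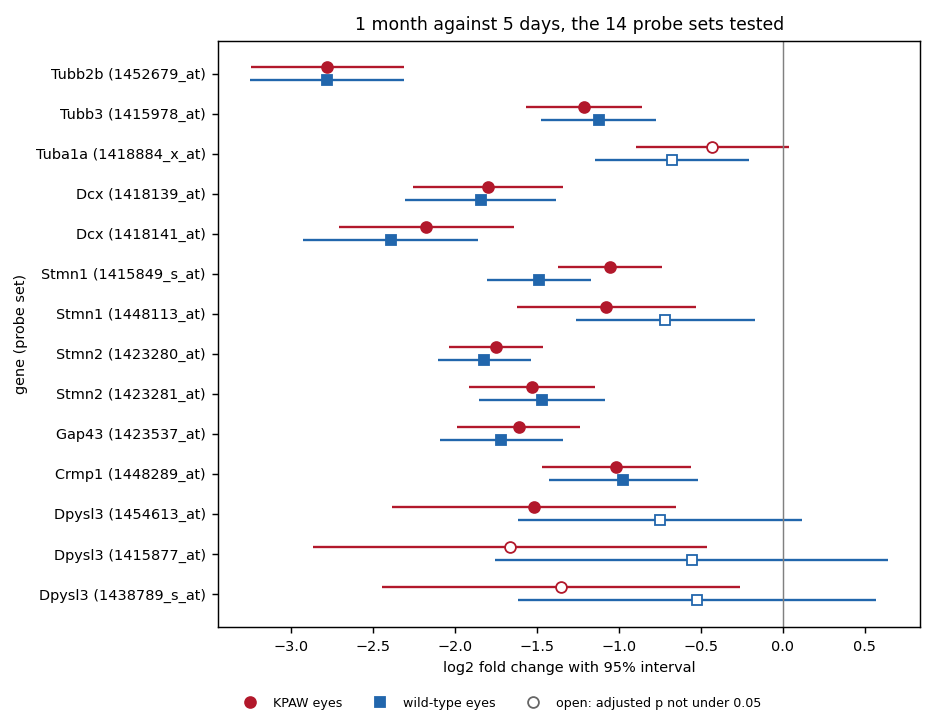
Log2 fold change of 1 month against 5 days, with 95% confidence intervals, for the 14 tested probe sets in KPAW (circles) and wild type (squares) eyes, with open symbols where the adjusted p was not under 0.05. Every estimate lies below 0; Tubb2b is farthest from 0 (-2.78 in both), and the 3 Dpysl3 probe sets have the widest intervals.

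The age difference was also read on the 5-day array whose Xist was low. KPAW array I at 5 days, with an Xist signal of 0.0821, within the range of the 1-month arrays, read 0.476 for Tubb2b, 0.167 for Dcx, 1.14 for Stmn2 and 0.340 for Gap43. All 4 values lay above every 1-month value of the same gene. Not every tested probe set did so: for Dpysl3 1415877_at, wild type array II at 1 month read 0.480, against 0.473 on KPAW array I at 5 days. With KPAW array II at 5 days left out, so that only that array stood for KPAW at 5 days, 8 of the 14 probe sets fell in KPAW, where 1.9% of all probe sets fell in the same fit. Members were in general somewhat dimmer on that array than in wild type at 5 days, with a median deviation over the tested probe sets of -0.19 on the log2 scale, against 0.01 on KPAW array II.

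Other genes of neuronal outgrowth moved with age as well. Of 30 further genes of growth cones and young neurons, 26 were tested, and 10 fell in KPAW and 14 in wild type while none rose. Over all probe sets 7.51% fell in KPAW and 9.33% in wild type. The median log2 fold change of that list was -0.52 in KPAW and -0.77 in wild type. Sox4, a transcription factor of newly born neurons, fell, with log2 fold changes of -2.62 in KPAW and -2.61 in wild type (limma adjusted p = 0.000291 and 0.000245). Nnat, an imprinted membrane protein of developing brain, had log2 fold changes of -2.35 in KPAW and -2.84 in wild type (limma adjusted p = 0.000519 and 0.000225). Marcksl1, an actin-binding membrane protein, had log2 fold changes of -2.15 in KPAW and -2.43 in wild type, and Dbn1, which encodes the actin-binding protein drebrin, of -1.65 in both (all with limma adjusted p of 0.00106 or lower). With the values as deposited the counts that fell were 7 in KPAW and 6 in wild type, where the median of all genes itself stood at 0.43 in wild type.

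Among 15 other tubulin genes, of which 9 were tested, 2 fell and 1 rose in KPAW and 3 fell in wild type. Over all probe sets 7.51% fell and 6.76% rose in KPAW, and 9.33% fell and 8.73% rose in wild type. The medians of the tubulin list were -0.15 in KPAW and -0.24 in wild type. With the values as deposited the wild type median of that list was 0.21, under the 0.43 of all genes. Tubb6 had log2 fold changes of -1.05 in KPAW and -1.77 in wild type (limma adjusted p = 0.0308 and 0.00382), and Tubb5 of -0.65 in KPAW and -0.85 in wild type (limma adjusted p = 0.0205 and 0.00655). Tuba4a rose in KPAW (log2 fold change 1.37, limma adjusted p = 0.0451) and had a log2 fold change of 1.24 in wild type (limma adjusted p = 0.0529). Tubb2a, the closest paralog of Tubb2b, had a log2 fold change of -0.49 in KPAW (limma adjusted p = 0.0751) and fell in wild type (-0.71, limma adjusted p = 0.0199).

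Of 24 other neuronal microtubule regulators, 20 were tested. In KPAW 5 fell and 1 rose, where 7.51% of all probe sets fell and 6.76% rose. In wild type 5 fell and 2 rose, where 9.33% of all fell and 8.73% rose. The medians of that list were -0.08 in KPAW and -0.13 in wild type. Stmn4, a further stathmin, fell in KPAW (log2 fold change -1.53, limma adjusted p = 0.0016) and in wild type (-1.38, limma adjusted p = 0.00182). Dpysl5 and Dpysl4, relatives of Crmp1 and Dpysl3, had log2 fold changes of -1.11 and -1.08 in KPAW and of -1.11 and -1.15 in wild type, all past the test. Mapre3, a protein of growing microtubule ends, rose in KPAW (0.83, limma adjusted p = 0.03) and in wild type (1.24, limma adjusted p = 0.00588). Stmn3 had log2 fold changes of -0.14 in KPAW and -0.16 in wild type and did not pass. Of 12 tested genes for tubulin folding, modification and severing, 2 fell in KPAW and 1 in wild type, where 7.51% of all probe sets fell in KPAW and 9.33% in wild type. Their median was -0.04 in KPAW and 0.08 in wild type. Spast, which encodes the microtubule-severing enzyme spastin, fell in KPAW (-1.33, limma adjusted p = 0.0034) and in wild type (-1.09, limma adjusted p = 0.00589), and Hdac6, a tubulin deacetylase, fell in KPAW (-0.81, limma adjusted p = 0.0114).

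Of 8 tested genes of neurofilaments and axon caliber, 2 rose in KPAW and 1 in wild type, and none fell, where 6.76% of all probe sets rose in KPAW and 8.73% in wild type. The median log2 fold change of that list was -0.08 in KPAW and -0.16 in wild type. Nefh, the heavy neurofilament chain, rose in KPAW (log2 fold change 1.41, limma adjusted p = 0.00367) and in wild type (1.32, limma adjusted p = 0.00381), and Thy1, a surface protein of retinal ganglion cells, rose in KPAW (0.51, limma adjusted p = 0.0447). Of 11 tested synapse genes, 3 rose and 1 fell in KPAW, and 5 rose and 1 fell in wild type, with medians of 0.25 in KPAW and 0.63 in wild type. Their summed signal over 12 genes read 6.13 and 8.17 in KPAW and 9.19 and 8.36 in wild type at 1 month, against 5.02 and 6.05 in KPAW and 4.88 and 5.40 in wild type at 5 days. Cell cycle genes fell at 1 month, 9 of 14 tested in KPAW and 10 of 14 in wild type, and so did 5 of 9 retinal progenitor genes in KPAW and 4 of 9 in wild type. For these and the synapse list, the share of all probe sets that fell was 7.51% in KPAW and 9.33% in wild type. The summed signal of 6 ganglion cell genes overlapped between the ages, at 1.06 and 0.818 in KPAW and 0.919 and 0.949 in wild type at 1 month, against 0.683 and 0.938 in KPAW and 0.907 and 1.03 in wild type at 5 days. Bub1 and Sox11 were listed at the lowest value on all 1-month arrays. The part of these cell types in the differences of the 9 genes was not tested.

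**Figure D3:**
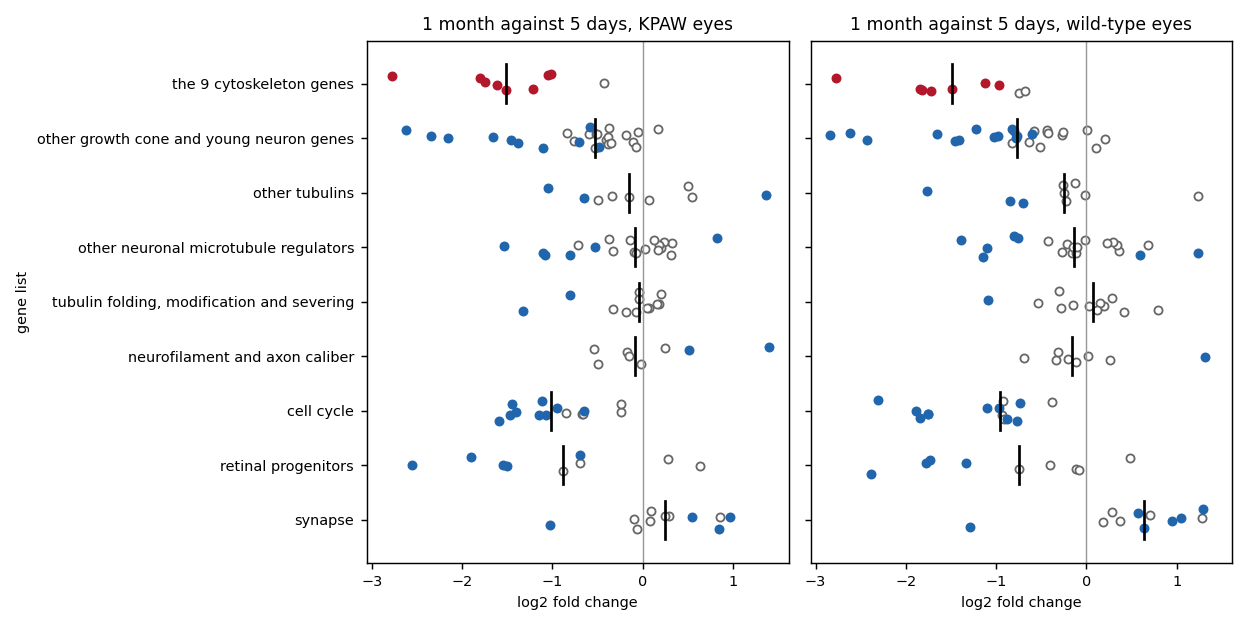
Log2 fold change of 1 month against 5 days for the 9 immature neuron cytoskeleton genes and the tested genes of each other list, in KPAW and in wild type eyes, with 1 point per gene, filled where the adjusted p was under 0.05, and a bar at the list's median. The median of the 9 genes is -1.52 in KPAW and -1.48 in wild type, that of the other growth cone genes -0.52 in KPAW and -0.77 in wild type, and that of the other tubulins -0.15 in KPAW and -0.24 in wild type.

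The genes whose pattern over the 8 arrays was most like the median of the 9 were sought among 9483 other genes, by the root mean square difference of centred log2 profiles. The nearest was Grb10, an imprinted adaptor of growth factor receptors, at 0.0910, with log2 fold changes between ages of -1.44 in KPAW and -1.41 in wild type. E330034G19Rik (0.107), Gadd45gip1 (0.119), Fgf15 (0.129), a growth factor of retinal progenitors, and Snrpb2 (0.130), a splicing protein, came next. Measured the same way, Gap43 (0.179), Tubb3 (0.184) and Stmn1 (0.185) lay nearest to the median of their own set. Dpysl3 (0.463), Tuba1a (0.496) and Tubb2b (0.701) lay farthest, and 42.8% of other genes were nearer to that median than Tubb2b. This distance counts the size of a change as well as its direction, and Tubb2b had the steepest age difference of the 9 (-2.78 in KPAW and in wild type). Likeness of this kind is dominated by the difference between ages, which the 8 arrays share. Fgf15 read 0.00958 to 0.0205 on the 1-month arrays, under the pseudocount of 0.0211. E330034G19Rik read 0.0238 to 0.0296 there, a little above it. The pseudocount understates the age differences of such dim genes, so the match in size is less certain for these.

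The second comparison set KPAW eyes against wild type eyes at each age. At 1 month none of the 14 probe sets passed (lowest limma adjusted p = 0.675), where 0.0253% of all probe sets did. At an unadjusted p under 0.05 there was 1 of 14, the Dpysl3 probe set 1454613_at, against 6.95% of all probe sets. At 5 days 0 of 14 passed (all limma adjusted p = 1.00), where 0% of all probe sets did, and 0 of 14 had an unadjusted p under 0.05, against 2.39%. Differences of a limited size remain possible. Leaving Dpysl3 aside, the 95% intervals of the other 8 genes, each on its brightest probe set, lay between -0.66 and 0.64 on the log2 scale at 1 month and between -0.66 and 0.63 at 5 days.

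Arrays of the 2 kinds of eye did not overlap for a few probe sets. At 1 month both KPAW arrays lay below both wild type arrays for 4 of 14 probe sets, against 19.6% of all, and above them for 2 of 14, against 17% of all. Those below were Stmn2 1423280_at (log2 fold change -0.19, 95% interval -0.48 to 0.09), Gap43 (-0.17, -0.55 to 0.20), Stmn1 1448113_at (-0.22, -0.76 to 0.33) and Dpysl3 1454613_at, the largest difference among them (-0.89, -1.75 to -0.02). Those above were Stmn1 1415849_s_at (0.27, -0.05 to 0.58) and Tubb2b (0.17, -0.30 to 0.64). At 5 days both KPAW arrays lay below both wild type arrays for 4 of 14, against 16.6% of all: Gap43 (-0.28), Stmn2 1423280_at (-0.27), Stmn1 1415849_s_at (-0.16) and Tuba1a (-0.14). Gap43 and Stmn2 1423280_at were thus below wild type on both KPAW arrays at both ages, by amounts that did not pass the test at either. The share of all probe sets below at both ages was not computed. The other Stmn2 probe set, 1423281_at, overlapped wild type at both ages, with log2 fold changes of -0.14 at 1 month and -0.07 at 5 days. For Tubb3 the log2 fold change was -0.04 at 1 month, with a 95% interval of -0.39 to 0.31.

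**Figure D4:**
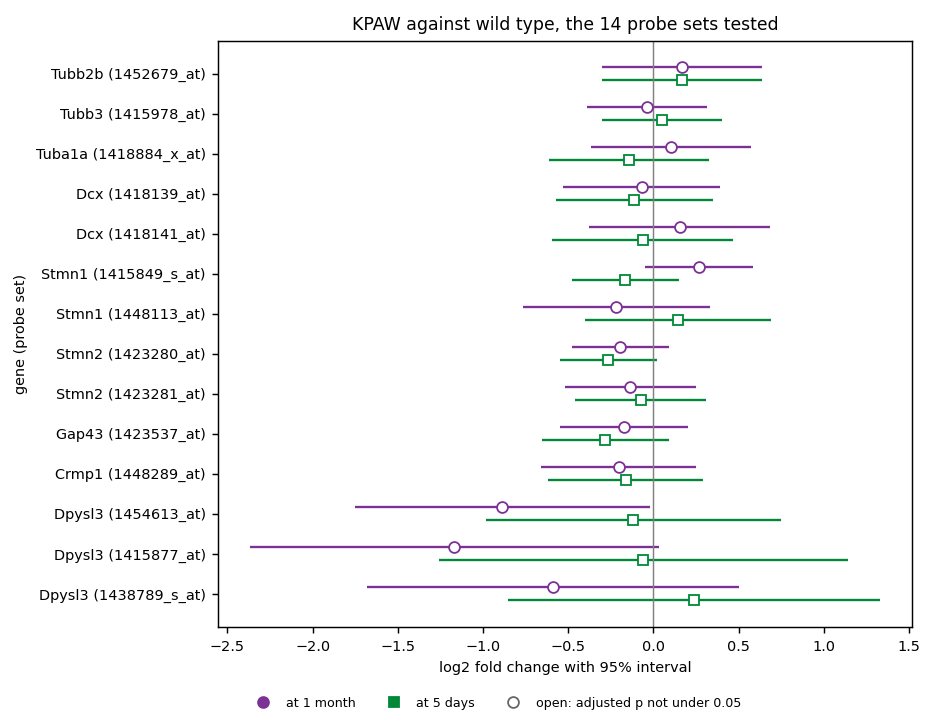
Log2 fold change of KPAW against wild type eyes, with 95% confidence intervals, for the 14 tested probe sets at 1 month (circles) and at 5 days (squares), all open because no adjusted p was under 0.05. All intervals at 5 days span 0; at 1 month the interval of 1 Dpysl3 probe set (-1.75 to -0.02) does not.

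Whether the age difference itself differed between KPAW and wild type was tested by the interaction of age and genotype. None of the 14 probe sets passed, where 0% of all probe sets did, and 0 of 14 had an unadjusted p under 0.05, against 5.88%. The largest estimates were those of Dpysl3, at -0.77 for 1454613_at (95% interval -1.99 to 0.45, limma adjusted p = 0.816), -1.11 for 1415877_at and -0.83 for 1438789_s_at.

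The low Dpysl3 mean of KPAW eyes at 1 month rested on 1 array. On KPAW array I the 3 Dpysl3 probe sets lay -1.59, -2.02 and -1.40 on the log2 scale from the wild type mean, while on KPAW array II they lay -0.18, -0.32 and 0.22 from it. In scaled signal, 1415877_at read 0.0649 and 0.259 on KPAW arrays I and II, against 0.221 and 0.480 in wild type, and 1438789_s_at read 0.0287 and 0.132, against 0.0870 and 0.138 in wild type. All 3 probe sets were lowest on KPAW array I. The other 8 genes were not as far from wild type there: on their brightest probe sets KPAW array I lay between -0.37 (Crmp1) and 0.42 (Stmn1) from the wild type mean.

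The log2 fold change of Dpysl3 1454613_at in KPAW against wild type at 1 month was -0.89 with both KPAW arrays (SE 0.37, 95% interval -1.75 to -0.02, unadjusted p = 0.0455 from limma). It was -0.18 without KPAW array I (limma adjusted p = 1.00) and -1.59 without KPAW array II (limma adjusted p = 0.00203). With KPAW array II left out, 2 of the 14 probe sets passed, both for Dpysl3, and 3.55% of all probe sets passed in that fit, against 0.0253% with both KPAW arrays. The interaction of Dpysl3 1454613_at passed as well (-1.47, limma adjusted p = 0.0143), 1 of 14, where 1.93% of all probe sets did. The rod genes were also lowest on KPAW array I at 1 month, with a sum of 2.59 against 40.8 on KPAW array II. So was the synapse sum at that age, at 6.13 against 8.17 on KPAW array II and 9.19 and 8.36 in wild type. Apart from KPAW array I, the order of the 1-month arrays depended on the Dpysl3 probe set. KPAW array II had a higher rod sum than wild type array I (40.8 against 36.8) but a lower Dpysl3 1454613_at signal (1.05 against 1.13). On Dpysl3 1415877_at (0.259 against 0.221) and 1438789_s_at (0.132 against 0.0870) KPAW array II was higher than wild type array I, as for the rod sum. At 5 days the rod sum was 9.01 and 8.70 in KPAW and 9.01 and 10.1 in wild type. Dpysl3 1454613_at then read 1.76 and 1.96 in KPAW and 1.94 and 2.10 in wild type, above all 1-month arrays. The 5-day arrays differ from the 1-month arrays in age as well as in rod signal, so these values do not separate the 2. The part of the low rod signal in the Dpysl3 value of KPAW array I was not tested.

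**Figure D5:**
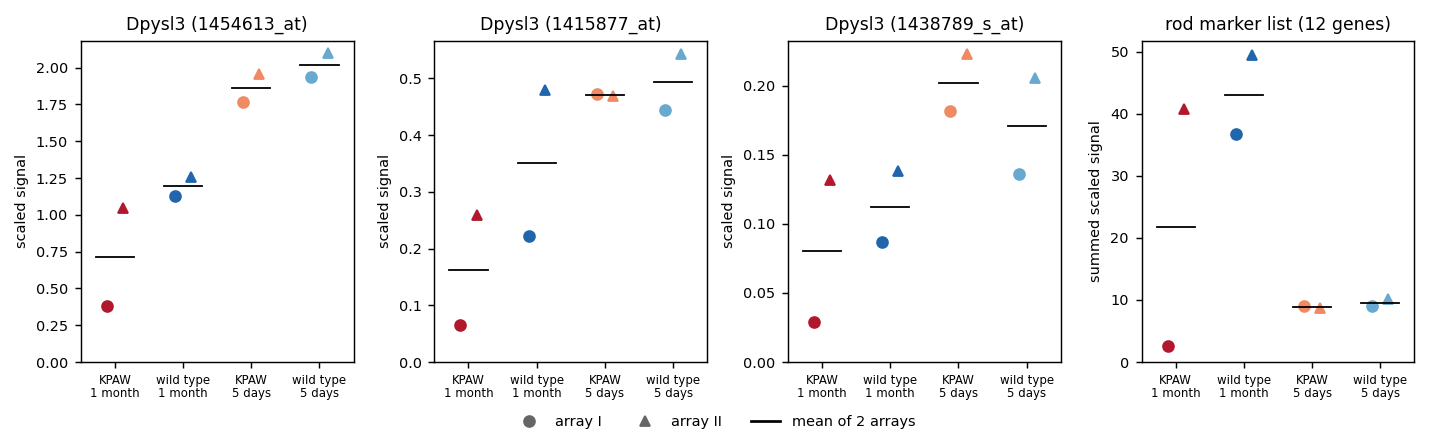
Scaled signal of the 3 Dpysl3 probe sets, and the summed scaled signal of 12 rod genes, on each of the 8 arrays on linear axes from 0, with circles for array I, triangles for array II and lines at their mean. KPAW array I at 1 month is the lowest point for all 3 probe sets (0.382, 0.0649 and 0.0287), and for the rod sum (2.59).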

How the data were processed

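Each array was deposited as a signal for every probe set, per the file headers, and the software and scaling behind them are not given in the sources used here. Values were treated as linear because none is negative, the lowest listed is 0.01 and control probe sets have a median of 1 on each array; array medians ran from 0.0680 to 0.129, and any earlier centring stays unknown. The signal is of 1 colour, so no direction is involved. Of 22690 probe sets 64 controls were left out; 20380 of the rest carry 1 gene symbol in the platform annotation, 691 several and 1555 none. Each array was scaled to a common 2%-trimmed mean, and log2(signal + 0.0211) was taken, which understates changes of dim probe sets. Probe sets above the 30th percentile of mean signal (15838, covering 9492 genes) were fitted in limma 3.58.1 (R 4.3.3) over all 4 groups, with a variance trend and 4 residual degrees of freedom. The p-values were Benjamini-Hochberg adjusted over all probe sets fitted, and calls were made at 0.05; confidence intervals are 95%. Summaries used Python 3.11.15 with pandas 2.3.3, and plots used matplotlib 3.10.9. The number of arrays limits the precision.

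On simulated data with 15838 probe sets, the 1 month against 5 days comparison recovered 56% of 2-fold and 90% of 4-fold changes in KPAW and 60% and 92% in wild type. KPAW against wild type recovered 46% and 92% at 1 month and 40% and 86% at 5 days. Unchanged probe sets called were 11 with age in KPAW, 7 with age in wild type, 13 at 1 month and 6 at 5 days. Far fewer probe sets were changed there than were called with age in the real data. The changes were added after the pseudocount, so its effect on dim probe sets is left out. The recovery describes that setting only. The members and lists were chosen with earlier results of these data known. All member probe sets are described, a gene's main probe set is its brightest over the 8 arrays, and up to 4 called genes with the largest log2 fold changes are named per list, and Stmn3 was added after its values were seen. Alternatives were other scalings, pseudocounts and filters, no variance trend, the groups of a comparison alone, 1 probe set per gene, the array numeral as a block and each array left out; array weights and a common floor were added after seeing the data.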

Additional observations from a re-analysis of the deposited data

Results flagged for a closer look

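The brighter Stmn1 probe set, 1415849_s_at, had estimates of opposite sign at the 2 ages, and neither passed the test. Both KPAW arrays at 1 month lay above both wild type arrays (log2 fold change 0.27), as for 17% of all probe sets. Both KPAW arrays at 5 days lay below both wild type arrays (log2 fold change -0.16), as for 16.6% of all probe sets. The difference between the 2 was tested by the interaction of age and genotype and did not pass (0.43, 95% interval -0.01 to 0.88, limma adjusted p = 0.809). The other Stmn1 probe set, 1448113_at, had the opposite signs, -0.22 at 1 month and 0.14 at 5 days.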

How the results depend on the processing

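No called probe set of the 9 genes rose with age in any of the 22 settings. Tubb2b, Dcx 1418139_at, Stmn1 1415849_s_at, Stmn2 1423280_at and Gap43 passed in all 22, in KPAW and in wild type. Over the settings that left out no single array, the count that fell with age was 8 to 13 in KPAW and 7 to 12 in wild type. These counts are out of 14 tested probe sets in most settings. They are out of 9 with 1 probe set per gene, 12 with the filter at the 50th percentile and 16 with no filter. The 12 that fell in wild type came from fitting its 2 ages alone. The 7 came from the values as deposited (of 14) and from 1 probe set per gene (of 9). Shares over all probe sets were not compiled for the alternatives that kept all arrays, nor for most that left out 1 array. The ranges of counts therefore do not show how far the members exceed all probe sets in each fit. Leaving out 1 array gave 8 to 12 in KPAW and 8 to 11 in wild type. For KPAW against wild type it gave 0 to 2 at 1 month, 0 to 0 at 5 days, and 0 to 1 for the interaction; the 2 and the 1 are Dpysl3 probe sets without KPAW array II at 1 month, with the other settings at 0. A group left with 1 array was assumed to vary like the others. Fitting the groups of a comparison alone was not run for the interaction, which needs all 4. Without scaling, the median of all probe sets moved to 0.44 for age in wild type, -0.26 for KPAW against wild type at 1 month, 0.18 at 5 days and -0.45 for the interaction, and changes are read against it. With the array numeral as a replicate block the counts were 13 in KPAW and 9 in wild type with age, and 0 in the other comparisons. The 2 further calls in KPAW were the Dpysl3 probe sets 1415877_at and 1438789_s_at. The numerals were treated as a shared number and not as pairs, because nothing in the labels pairs the arrays and the deviations of equal numerals correlated above 0.1 in only 3 of 6 pairs of groups (-0.0174 to 0.309). Dim probe sets are limited by the lowest listed value, which 10.0% to 14.9% of an array's probe sets share.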
